A study of Homo sapiens with 12 samples.

Results

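The genes described here are 10 genes whose products move, activate, degrade or are the targets of the pyrimidine drugs fluorouracil and gemcitabine: DPYD, UPP1, TYMP, UMPS, TYMS, SLC29A1, DCK, CDA, RRM1 and RRM2. They were taken by gene symbol from a table of 63086 genes, and all 10 were found and were among the 15987 genes with a mean normalised read count of at least 10 over all libraries. DPYD passed that minimum through the lines in which it was high. The list was drawn up when differences between these same libraries were already known. DPYD stood in it for its difference between the lines, so its values are given as a description with no test, and it is left out of the counts of genes that passed a test. The directions of the other 9 genes are likewise no independent support for each other.

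The libraries came from MIA PaCa-2, a human pancreatic carcinoma cell line, in a study of TIMP1, which encodes an inhibitor of metalloproteinases. There were 4 lines with 3 biological replicates each. WT was the unmodified line. CRISPR Control had been through the same kind of genome editing and carried a silent point mutation that left the protein as it was. The knockout clones TIMP1 KO 1 and TIMP1 KO 2 were made with guide RNAs to different regions of exon 4. All cells were cultured to a similar confluence and no drug is named in the labels, so the values are levels of RNA in growing cells and not a response to fluorouracil or gemcitabine. Each edited line stands for a single clone or line, so what TIMP1 did and what the isolation of a clone did cannot be told apart within a line. Nothing in the labels places the replicates in separate thaws or experiments, and the p-values below measure only the spread between these libraries.

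Fluorouracil and gemcitabine are analogues of a natural base and a natural nucleoside, and cells handle them with the enzymes of normal pyrimidine metabolism. Dihydropyrimidine dehydrogenase, encoded by DPYD, breaks down uracil, thymine and fluorouracil, while UPP1, TYMP and UMPS carry fluorouracil towards nucleosides and nucleotides, one of which blocks thymidylate synthase (TYMS). Gemcitabine enters through nucleoside carriers such as the product of SLC29A1, is activated by deoxycytidine kinase (DCK), is inactivated by cytidine deaminase (CDA), and in its diphosphate form inhibits ribonucleotide reductase, whose subunits are encoded by RRM1 and RRM2.

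The libraries held 26908701 to 36093563 reads in genes. TIMP1 itself had a normalised read count, the number of reads divided by a size factor of the library, of 3553 ± 274 (SD, n = 3) in WT and 2690.4 ± 357 in CRISPR Control, against 1600 ± 32.9 in KO 1 and 1161 ± 28.8 in KO 2, so its RNA was lower in both knockout lines but still present, and it was also lower in CRISPR Control than in WT (-0.41 ± 0.09, SE, log2, limma adjusted p = 0.000769). The epithelial keratins KRT8 and KRT18 and the mesenchymal filament VIM, which MIA PaCa-2 cells express, were present in every library, and KRT18 did not fall below a normalised read count of 14596. The markers differed between lines, however: KRT8 had 129994 ± 7797 in WT and 39963 ± 5048 in CRISPR Control, against 135667 ± 1627 in KO 1 and 96385 ± 4878 in KO 2. The epithelial cadherin CDH1 had 1189 ± 56.6 in WT and 1424 ± 73.0 in CRISPR Control but 128 ± 28.1 in KO 1 and 84.9 ± 17.1 in KO 2, and the part of these differences in the results below was not tested. The summed normalised read count of 10 markers of leukocytes, endothelium and acinar pancreas was between 42.9 and 61.6 in WT, CRISPR Control and KO 1 and between 125 and 159 in KO 2, where the integrin gene ITGAM made up 91.7 ± 18.6 of it. CELA3A was at 0 in all 12 libraries and CD3E in those of WT, CRISPR Control and KO 1. A list of 17 S-phase genes that shares no gene with the 10 had a summed normalised read count of 100857 to 109714 in WT, 89117 to 95356 in CRISPR Control, 64761 to 66727 in KO 1 and 42258 to 44545 in KO 2. In bulk RNA, fewer cells in a state or of a type and less RNA per cell cannot be told apart.

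The bases before the transcription starts of DPYD and of the ribonucleotide reductase genes RRM1 and RRM2 are shown because DPYD varied most between the lines and because the reductase genes encode subunits of 1 enzyme and were both lower in the knockout lines. The windows hold the 250 bases before the first listed start in RefSeq on GRCh38.p14, written 5′ to 3′ on the strand of the gene, and capitals mark the letters CCAAT or, on the opposite strand, ATTGG. DPYD lies on the minus strand (chr1:97921035-97921284), RRM1 on the plus strand (chr11:4094435-4094684) and RRM2 on the plus strand (chr2:10122489-10122738).
DPYD: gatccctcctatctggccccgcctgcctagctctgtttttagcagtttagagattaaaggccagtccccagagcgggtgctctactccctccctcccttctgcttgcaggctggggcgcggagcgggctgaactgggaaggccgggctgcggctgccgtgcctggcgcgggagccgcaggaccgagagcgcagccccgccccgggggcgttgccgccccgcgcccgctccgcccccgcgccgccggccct
RRM1: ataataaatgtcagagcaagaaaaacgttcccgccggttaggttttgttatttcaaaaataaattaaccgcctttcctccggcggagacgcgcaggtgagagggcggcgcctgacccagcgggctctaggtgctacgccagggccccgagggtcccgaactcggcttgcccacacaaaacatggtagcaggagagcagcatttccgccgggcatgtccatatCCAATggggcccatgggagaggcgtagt
RRM2: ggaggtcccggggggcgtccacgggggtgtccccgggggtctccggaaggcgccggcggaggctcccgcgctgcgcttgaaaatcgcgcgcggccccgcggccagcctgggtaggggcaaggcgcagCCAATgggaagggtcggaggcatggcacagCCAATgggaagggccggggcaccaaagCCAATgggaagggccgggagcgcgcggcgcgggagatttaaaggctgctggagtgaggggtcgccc
The RRM2 window held CCAAT 3 times and the RRM1 window once, while the DPYD window held none. Of 27305 genes with windows of this length, 37.0% held CCAAT at least once in a window on either strand and 3.55% held it at least 3 times. TYMP, which was higher than WT in both knockout lines, where RRM1 and RRM2 were lower, also held it once. UPP1, UMPS, TYMS, SLC29A1 and CDA, which were lower than WT in both knockout lines as well, held it in no window. DCK held none either. Letters of E2F type (TTTCCCGC, TTTCGCGC, TTTGCCGC or TTTGGCGC on either strand) occurred for 3.4% of all genes and, among the 10 genes, once in the window of TYMS. TATAAA, found for 13.0% of all genes, was in no window of the 10 genes. GC content was 72.4% in the DPYD window, 56.4% in that of RRM1 and 73.2% in that of RRM2, against a median of 58.0% over all genes. Matches of letters are given as a description of these windows and do not show binding.

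**Figure D1:**
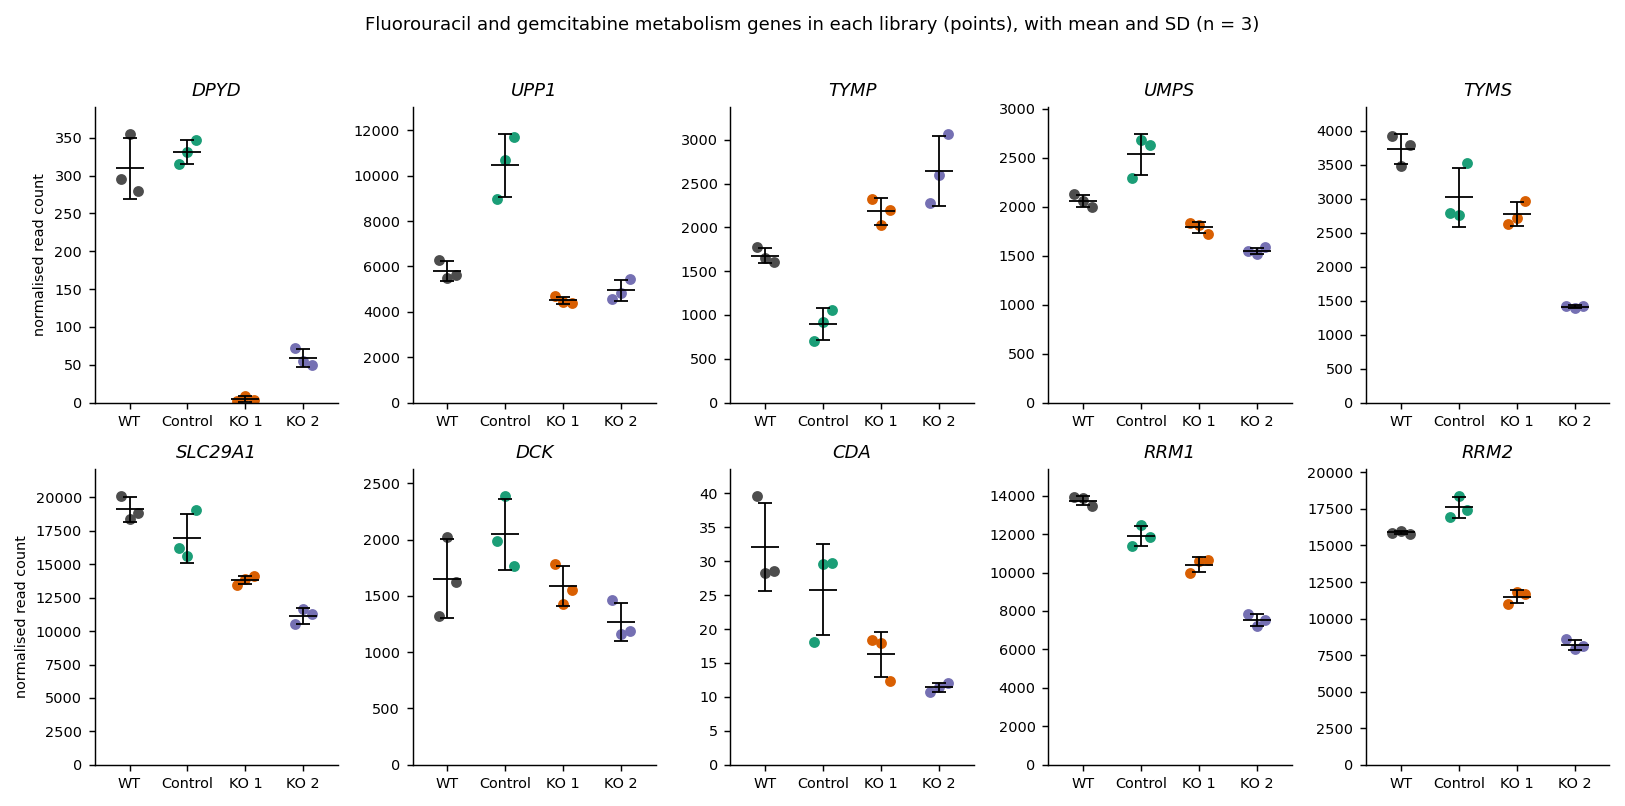
Normalised read count (vertical axis, linear, from 0) of the 10 genes in every library of WT, CRISPR Control (Control), TIMP1 KO 1 and TIMP1 KO 2; points are libraries, the long dash is the mean and the bars are the SD of 3 libraries. DPYD is at 279 or more in every WT and CRISPR Control library and at 72.1 or less in every knockout library, and TYMP alone has its 6 knockout libraries above the other 6.

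DPYD, the enzyme that starts the breakdown of fluorouracil, had the widest range of the 10 genes between lines. Its normalised read counts were 295, 355.5 and 279 in WT and 315, 331 and 347 in CRISPR Control, against 2.16, 9.0 and 3.53 in KO 1 and 72.1, 55.2 and 49.4 in KO 2. WT and CRISPR Control overlapped, both knockout lines lay below them, and KO 1 lay below KO 2 with no overlap. The means were 310.0 ± 40.2, 331 ± 16, 4.90 ± 3.62 and 58.9 ± 11.8 (SD, n = 3). KO 1 thus had 1.58% and KO 2 19.0% of the WT mean. In reads, the 3 KO 1 libraries held 2, 8 and 4, a total of 14 with an exact 95% Poisson interval of 7.65 to 23.5 that covers counting error only, against 945 in WT, 960 in CRISPR Control and 199 in KO 2. A count of 0 would have allowed up to 3 reads in a library, so DPYD was close to the limit of detection in KO 1. On the log2 scale of the normalised read count plus 1, DPYD was -5.89 from WT in KO 1 and -2.39 in KO 2, with a difference of 3.5 between the knockout lines and 0.10 between CRISPR Control and WT. The scale understates the change of low genes: with 10 added in place of 1 the value in KO 1 was -4.44, and without KO 1 replicate 2, the library with 8 reads, it was -6.35.

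DPYD spans chr1:97077743-97995000 on the minus strand of GRCh38. The annotated span begins before the RefSeq start used above. It overlaps 9 other annotated genes, 3 on the same strand and 6 on the opposite strand, and the strand setting of the read counting is not given in the sources used here. Of these overlapping genes, the antisense genes DPYD-AS1 and DPYD-AS2 were at or near 0, with 5.50 as the highest normalised read count of DPYD-AS1 in any library and 0 of DPYD-AS2 in all 12. MIR137HG, the host gene of the microRNA miR-137, overlaps the annotated span of DPYD on the same strand. Its own span starts at chr1:97933474, so the overlap lies before the RefSeq start of DPYD used above. MIR137HG had normalised read counts of 39.6, 24.6 and 27.6 in WT and 13.8, 5.93 and 11 in CRISPR Control, and 0 of 191676742 reads in the 6 knockout libraries, where a count of 0 allows up to 3 reads in each. Both DPYD and MIR137HG were therefore lowest in the knockout lines, but MIR137HG was also lower in CRISPR Control than in WT, with no overlap between the libraries.

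Within 2 Mb on either side of DPYD, 11 of 59 annotated genes were tested. Against WT, 1 was higher and 3 were lower in KO 1, 2 were higher and 3 lower in KO 2, and 2 were higher and 2 lower in CRISPR Control, beside 35.5%, 55.0% and 53.4% of all tested genes that passed in these lines. MIR137HG is counted as lower in both knockout lines, but it passed the minimum mean count only through WT and CRISPR Control. Its fall in the knockout lines is therefore a description and no support. Nearest to DPYD without overlap, the splicing regulator PTBP2 (0.254 Mb away) had 222 ± 21.0 in WT and 221 ± 34.0 in CRISPR Control, against 209.6 ± 23.8 in KO 1 and 267 ± 39.9 in KO 2. The sorting nexin SNX7 (0.667 Mb away) had 1268 ± 105 in WT and 1186 ± 142 in CRISPR Control, against 1397 ± 56.0 in KO 1 and 1283 ± 134 in KO 2. Neither PTBP2 nor SNX7 passed the test in a knockout line. Besides MIR137HG, 1 tested gene was lower in both knockout lines, TMEM56, at 1.88 Mb, with 153 ± 49.7 in WT and 134 ± 31.7 in CRISPR Control, against 25.7 ± 5.40 in KO 1 and 31.4 ± 7.99 in KO 2. FRRS1, at 1.71 Mb on the other side, was lower in KO 1 alone among the knockout lines, at 2.09 ± 2.90 against 20.6 ± 8.96 in WT and 35.6 ± 11.1 in CRISPR Control, and had 14.9 ± 3.77 in KO 2. FRRS1 had 5, 0 and 1 reads in KO 1 and passed the minimum mean count through the other lines. Its fall in KO 1 is therefore likewise a description and no support. Beyond FRRS1, SLC35A3 was higher in both knockout lines, at 623 ± 55.4 and 759 ± 97.1 against 468 ± 113 in WT and 462 ± 73.1 in CRISPR Control. RWDD3 was higher and RPL7P9 lower in KO 2 alone among the knockout lines, and EEF1A1P11 and SEC63P1 did not pass the test in either. RPL7P9, EEF1A1P11 and SEC63P1 are annotated as pseudogenes, so their reads may come from near-identical copies.

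**Figure D2:**
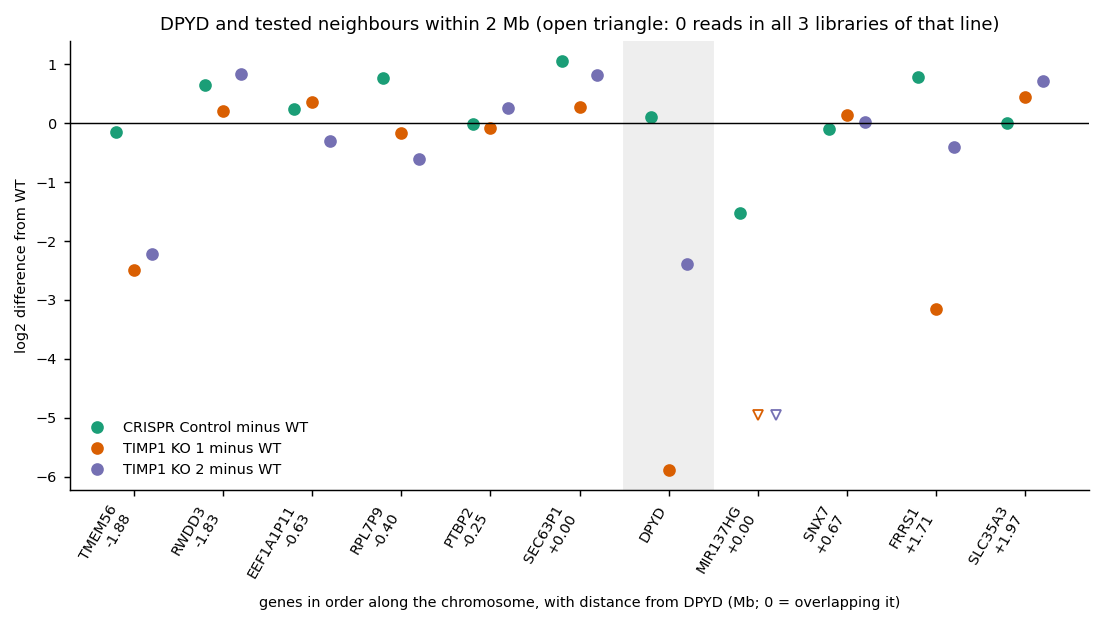
Log2 difference from WT (vertical axis, of the normalised read count plus 1) of DPYD, in the grey band, and of tested genes within 2 Mb of it in their order along the chromosome, for CRISPR Control, TIMP1 KO 1 and TIMP1 KO 2; the number under each name is the distance in Mb. The knockout values of MIR137HG (open triangles) are fitted from 0 reads and are no measured fold; PTBP2 and SNX7, the nearest protein-coding genes that do not overlap DPYD, differ from WT by at most 0.26 (PTBP2 in KO 2).

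The genes whose levels followed DPYD most closely over the 12 libraries, by Pearson's r of log2(normalised read count + 1) among 11641 genes with a mean of at least 100, were PDE10A (r = 0.982), INPP5A (0.979), DOCK11 (0.966), CDH2 (0.959) and EREG (0.958). The 12 points come from 4 lines, so r reflects differences between lines and is a description. PDE10A, a cyclic nucleotide phosphodiesterase, had 506 ± 50.7 in WT and 1322 ± 213 in CRISPR Control, against 4.33 ± 5.04 in KO 1 and 48.2 ± 5.62 in KO 2. CDH2, which encodes N-cadherin, had 571 ± 17.1, 1110 ± 65.1, 93.7 ± 10.1 and 384 ± 23.4. EREG, the growth factor epiregulin, was at 0 in all 3 KO 1 libraries and at 9.33 ± 4.86 in KO 2, against 256 ± 54.0 in WT and 708 ± 59.8 in CRISPR Control. The range of INPP5A was far narrower, from 1289 ± 19.0 in KO 1 to 2006 ± 114 in CRISPR Control. Of the other 9 drug genes, UPP1 had the highest r with DPYD (0.685) and TYMP was the only one with a negative r (-0.617).

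Of the 9 drug genes other than DPYD, 1 was higher and 7 were lower in KO 1 than in WT (limma, Benjamini-Hochberg adjusted p under 0.05), where 35.5% of all tested genes passed, 18.0% higher and 17.5% lower. Their median log2 difference was -0.40, and that of all tested genes was 0.00. In KO 2, 1 was higher and 8 were lower than in WT, with a median of -0.78 against -0.01 for all genes, of which 55.0% passed, 27.1% higher and 27.9% lower. Between CRISPR Control and WT, 2 were higher and 3 were lower, with 53.4% of all genes passing, 27.2% higher and 26.3% lower. Against CRISPR Control in place of WT, 1 was higher and 6 were lower in KO 1 (63.0% of all genes passed, 31.7% higher and 31.3% lower) and 1 was higher and 8 were lower in KO 2 (67.7%, 33.3% higher and 34.4% lower). The comparisons with WT share the WT libraries and those with CRISPR Control share the CRISPR Control libraries, so they are not separate evidence. Between KO 2 and KO 1, none was higher and 5 were lower in KO 2, with 38.2% of all genes passing, 18.1% higher and 20.1% lower. With equal library totals, the share of higher genes among all those that passed moved from 49.2% to 59.9% in KO 2 against WT and from 47.4% to 65.5% in KO 2 against KO 1. The gene higher in each comparison of a knockout line with WT or CRISPR Control was TYMP.

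Of the 9 genes other than DPYD, 5 (UPP1, UMPS, SLC29A1, RRM1 and RRM2) had the 6 libraries of both knockout lines below all 6 libraries of WT and CRISPR Control, and TYMP had them above. Over all tested genes, 12.4% had the 6 knockout libraries lower and 12.3% had them higher. For TYMS, DCK and CDA the libraries overlapped.

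**Figure D3:**
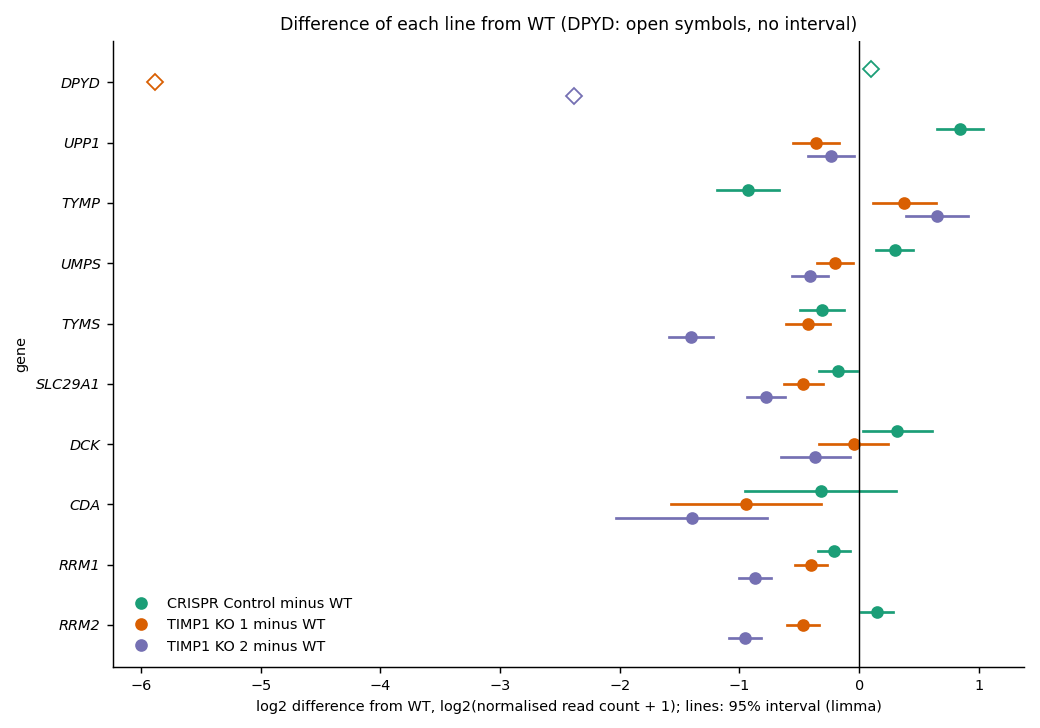
Log2 difference from WT (horizontal axis, of the normalised read count plus 1) of the 10 genes in CRISPR Control, TIMP1 KO 1 and TIMP1 KO 2; horizontal lines are 95% limma intervals of each gene, not adjusted for the number of genes, and DPYD is drawn with open symbols and no interval. UPP1, TYMP and UMPS differ from WT in opposite directions in CRISPR Control and in the knockout lines, and TYMS, RRM1 and RRM2 are lower in KO 2 than in KO 1.

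UPP1 (uridine phosphorylase), TYMP (thymidine phosphorylase) and UMPS (the bifunctional enzyme that makes uridine monophosphate) feed fluorouracil into the nucleotide pools. UPP1 had normalised read counts of 6294, 5485 and 5637 in WT and 8974, 10697 and 11718 in CRISPR Control, against 4678, 4448 and 4394 in KO 1 and 4549, 4842 and 5440.2 in KO 2. CRISPR Control stood above all other lines, and both knockout lines lay under WT and overlapped with each other. UPP1 rose by 0.84 ± 0.09 (SE, log2) in CRISPR Control against WT (limma adjusted p = 3.27e-07). It fell by 0.36 ± 0.09 in KO 1 (limma adjusted p = 0.00431) and by 0.23 ± 0.09 in KO 2 (limma adjusted p = 0.0376). The fall in KO 2 was lost with equal library totals (-0.14, limma adjusted p = 0.168), with quantile normalization (-0.11, limma adjusted p = 0.308), with no filter on low genes (limma adjusted p = 0.0740) and without WT replicate 1 (-0.17, limma adjusted p = 0.164), WT replicate 3 (-0.25, limma adjusted p = 0.0591), KO 2 replicate 1 (-0.18, limma adjusted p = 0.155) or KO 2 replicate 2 (-0.22, limma adjusted p = 0.0990).

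TYMP had 1775, 1646 and 1608 in WT and 699.6, 917 and 1062 in CRISPR Control, against 2327, 2023 and 2194 in KO 1 and 2276, 2596 and 3069 in KO 2. It was thus lowest in CRISPR Control and highest in the knockout lines, with no overlap of either with WT. TYMP rose by 0.38 ± 0.12 (SE, log2) in KO 1 against WT (limma adjusted p = 0.0229) and by 0.65 ± 0.12 in KO 2 (limma adjusted p = 0.000215), and fell by 0.93 ± 0.12 in CRISPR Control (limma adjusted p = 4.75e-06). The call in KO 1 was lost without WT replicate 2 or 3 or KO 1 replicate 1 or 3, with values of 0.33 to 0.37 and limma adjusted p of 0.0599 to 0.0924. The knockout lines did not differ past the threshold (0.27, 95% interval 0.01 to 0.53, limma adjusted p = 0.0941), but did so with equal library totals (0.37, limma adjusted p = 0.0178) and without CRISPR Control replicate 1 (0.27, limma adjusted p = 0.0293) or KO 2 replicate 1 (0.37, limma adjusted p = 0.0350). They also did so with quantile normalization (limma adjusted p = 0.0325), a fit of only these lines (limma adjusted p = 0.0461) and edgeR (edgeR adjusted p = 0.0497). TYMP spans chr22:50525752-50530032 and overlaps SCO2 and ODF3B on the same strand. SCO2 had 13.1 ± 3.64 in WT and 22.4 ± 7.05 in KO 2, far below TYMP. ODF3B, also below TYMP, had 91.9 ± 13.8 in WT and 40.8 ± 8.78 in CRISPR Control, against 169 ± 24.6 in KO 1 and 185 ± 36.5 in KO 2. ODF3B thus moved with TYMP, and its part in the reads of TYMP was not tested.

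UMPS had 2126, 2056 and 1999 in WT and 2293, 2680.5 and 2632 in CRISPR Control, against 1832, 1816 and 1725 in KO 1 and 1544, 1518 and 1585 in KO 2. No libraries of different lines overlapped, in the order CRISPR Control, WT, KO 1 and KO 2. UMPS rose by 0.30 ± 0.07 (SE, log2) in CRISPR Control against WT (limma adjusted p = 0.00231) and fell by 0.41 ± 0.07 in KO 2 (limma adjusted p = 0.000109). The fall of 0.20 ± 0.07 in KO 1 (limma adjusted p = 0.0390) was lost when any of the WT or KO 1 libraries, or KO 2 replicate 2, was left out, with values of -0.22 to -0.18 and limma adjusted p of 0.0522 to 0.140. It was also lost with quantile normalization (-0.19, limma adjusted p = 0.0535), no filter on low genes (limma adjusted p = 0.0758) and a replicate block (limma adjusted p = 0.0536). For UPP1, TYMP and UMPS alike, CRISPR Control thus stood on the other side of WT from the knockout lines.

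TYMS, which makes thymidylate for DNA and is the enzyme that fluorouracil blocks, lies at chr18:657653-673578. It had normalised read counts of 3921, 3485 and 3797 in WT and 2789.9, 2758 and 3526 in CRISPR Control, against 2634, 2715 and 2967 in KO 1 and 1418, 1386 and 1428 in KO 2. KO 2 lay below all other lines, whereas KO 1 and CRISPR Control overlapped. TYMS fell by 1.40 ± 0.09 (SE, log2) in KO 2 against WT (limma adjusted p = 1.83e-10), to 37.8% of the WT mean. It fell by 0.43 ± 0.09 in KO 1 (limma adjusted p = 0.000842) and by 0.31 ± 0.09 in CRISPR Control (limma adjusted p = 0.00607). KO 1 did not differ from CRISPR Control past the threshold (-0.12, 95% interval -0.30 to 0.07, limma adjusted p = 0.253), while KO 2 was lower than CRISPR Control by a log2 difference of -1.09 ± 0.09 (limma adjusted p = 2.65e-09). The opposite-strand neighbour ENOSF1, which overlaps TYMS, had 1061 ± 27.6 in WT and 901 ± 26.9 in CRISPR Control, against 938 ± 11 in KO 1 and 1022 ± 68.7 in KO 2.

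SLC29A1, the equilibrative nucleoside carrier that takes up gemcitabine, had the highest level per kb of annotated exon among the 10 genes in all 4 lines, a rank that depends on the exon lengths used. It had normalised read counts of 20119, 18360.0 and 18835 in WT and 16200.4, 15637 and 19056 in CRISPR Control, against 13460.2, 13895 and 14106 in KO 1 and 10523, 11683 and 11253 in KO 2. WT and CRISPR Control overlapped, and the knockout lines lay below them and apart from each other. SLC29A1 fell by 0.47 ± 0.08 (SE, log2) in KO 1 against WT (limma adjusted p = 0.000103) and by 0.78 ± 0.08 in KO 2 (limma adjusted p = 9.08e-08). CRISPR Control was -0.18 ± 0.08 from WT (95% interval -0.34 to -0.01, limma adjusted p = 0.0620), which passed without CRISPR Control replicate 3 (-0.26, limma adjusted p = 0.00557). It also passed with equal library totals (-0.20, limma adjusted p = 0.0252), with quantile normalization (-0.23, limma adjusted p = 0.00680) and with edgeR (-0.19, edgeR adjusted p = 0.0398). No other annotated gene overlaps SLC29A1 at chr6:44219553-44234142.

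DCK, the kinase that activates gemcitabine, and CDA, the deaminase that inactivates it, act on the drug in opposite ways. DCK had 1319, 2019 and 1623 in WT and 1987, 2388 and 1765 in CRISPR Control, against 1779, 1429 and 1551 in KO 1 and 1465, 1163 and 1184 in KO 2. WT libraries overlapped with those of every other line. DCK was -0.04 ± 0.14 (SE, log2) from WT in KO 1 (95% interval -0.33 to 0.24, limma adjusted p = 0.838), and this value was 0.11 without WT replicate 2 and 0.03 without KO 1 replicate 2. The fall of 0.37 ± 0.14 in KO 2 against WT (limma adjusted p = 0.0308) was lost without WT replicate 2 (-0.21, limma adjusted p = 0.204), WT replicate 3 (-0.37, limma adjusted p = 0.0658), KO 2 replicate 2 (-0.31, limma adjusted p = 0.117) or KO 2 replicate 3 (-0.32, limma adjusted p = 0.0952) and with equal library totals (-0.27, limma adjusted p = 0.123). It was also lost with quantile normalization (-0.33, limma adjusted p = 0.0568) and no filter on low genes (limma adjusted p = 0.0532). Against CRISPR Control, DCK was lower in KO 2 by a log2 difference of -0.68 ± 0.14 (limma adjusted p = 0.000231). The difference of KO 1 from CRISPR Control, -0.36 ± 0.14 (limma adjusted p = 0.0284), was lost without CRISPR Control replicate 2 (-0.24, limma adjusted p = 0.150) or KO 1 replicate 2 (-0.29, limma adjusted p = 0.118) or 3 (-0.35, limma adjusted p = 0.0702). CRISPR Control was 0.32 ± 0.14 from WT (limma adjusted p = 0.0591), which passed without WT replicate 2 (0.47, limma adjusted p = 0.00777) or CRISPR Control replicate 3 (0.42, limma adjusted p = 0.0232) and just passed without KO 2 replicate 1 (0.32). DCK overlaps MOB1B on the same strand at chr4:70992538-71030914, and MOB1B had 1162 ± 249 in WT and 1413 ± 163 in CRISPR Control, against 1200.2 ± 73.5 in KO 1 and 1081 ± 144 in KO 2.

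CDA was low in all lines, with 35, 31 and 30 reads in WT and 21, 25 and 27 in CRISPR Control, against 17, 16 and 14 in KO 1 and 13, 13 and 12 in KO 2. As normalised read counts these were 39.6, 28.2 and 28.6 in WT and 18.1, 29.7 and 29.7 in CRISPR Control, against 18.4, 18 and 12.4 in KO 1 and 10.8, 11.4 and 12.1 in KO 2. Both knockout lines lay below WT, and KO 1 overlapped with CRISPR Control. CDA fell by 0.94 ± 0.30 (SE, log2) in KO 1 against WT (limma adjusted p = 0.0195) and by 1.40 ± 0.30 in KO 2 (limma adjusted p = 0.000648). The call in KO 1 was lost with no filter on low genes (limma adjusted p = 0.0831) and without WT replicate 1 (-0.79, limma adjusted p = 0.0899) or KO 1 replicate 3 (-0.77, limma adjusted p = 0.0902). Within a library, the ratio of DCK to CDA reads was 53.9 ± 19.3 in WT and 83.2 ± 25.1 in CRISPR Control, against 101 ± 23.3 in KO 1 and 112 ± 20.9 in KO 2 (SD, n = 3), a ratio that rests on few CDA reads. Both knockout lines lay above WT in this ratio and overlapped with CRISPR Control.

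RRM1 and RRM2 encode the large and the small subunit of ribonucleotide reductase, which makes deoxynucleotides for DNA synthesis and is inhibited by activated gemcitabine. RRM1 had normalised read counts of 13904, 13864 and 13463 in WT and 11404, 12472 and 11832 in CRISPR Control, against 9956, 10623 and 10632 in KO 1 and 7839.7, 7208 and 7529.7 in KO 2. RRM2 had 15883, 16023 and 15795 in WT and 16950.1, 18395 and 17456 in CRISPR Control, against 10999, 11818 and 11663 in KO 1 and 8579, 7924 and 8089.7 in KO 2. For both genes KO 2 was lowest and KO 1 next, with no overlap with each other or with WT and CRISPR Control. RRM1 fell by 0.40 ± 0.06 (SE, log2) in KO 1 against WT (limma adjusted p = 7.48e-05) and by 0.87 ± 0.06 in KO 2 (limma adjusted p = 1.75e-09). RRM2 fell by 0.47 ± 0.06 in KO 1 (limma adjusted p = 1.24e-05) and by 0.96 ± 0.06 in KO 2 (limma adjusted p = 4.11e-10), to 51.6% of the WT mean. CRISPR Control was lower than WT for RRM1 (-0.21 ± 0.06, limma adjusted p = 0.0109, or 0.0502 when only these lines were fitted) and not past the threshold for RRM2 (0.15 ± 0.06, limma adjusted p = 0.0626). The latter passed without CRISPR Control replicate 1 (0.17, limma adjusted p = 0.0328) and with DESeq2 (0.15, DESeq2 adjusted p = 0.0317). Against CRISPR Control, RRM1 was lower in KO 1 by a log2 difference of -0.19 ± 0.06 (limma adjusted p = 0.0137), a call that was lost without KO 1 replicate 1 (-0.16, limma adjusted p = 0.0709).

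The ratio of RRM2 to RRM1 reads within a library, which no scaling of libraries can move, was 1.16 ± 0.02 in WT and 1.48 ± 0.01 in CRISPR Control, against 1.11 ± 0.01 in KO 1 and 1.09 ± 0.01 in KO 2 (SD, n = 3). The subunits thus fell almost in step in the knockout lines and stood apart in CRISPR Control. RRM2B, which encodes the other small subunit, used outside S phase, had 1436 ± 241 in WT and 2225 ± 207 in CRISPR Control, against 1881 ± 150 in KO 1 and 1684 ± 137 in KO 2. It was higher than WT in KO 1 (0.40 ± 0.11, SE, log2, limma adjusted p = 0.00728) and not past the threshold in KO 2 (0.24 ± 0.11, limma adjusted p = 0.0685). RRM2B also passed as higher in CRISPR Control than in WT, and as lower in KO 2 than in CRISPR Control. The ratio of RRM2B to RRM2 was 0.0903 ± 0.0148 in WT and 0.126 ± 0.0107 in CRISPR Control, against 0.164 ± 0.0173 in KO 1 and 0.205 ± 0.00914 in KO 2.

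S-phase genes were lower than WT in the knockout lines along with TYMS, RRM1 and RRM2. Of the 17 S-phase genes, all 17 were lower than WT in both knockout lines. Their median log2 difference was -0.71 in KO 1 and -1.22 in KO 2. All 17 were also lower in KO 2 than in KO 1 (median -0.60). Over all tested genes, 17.5% were lower than WT in KO 1 and 27.9% in KO 2, and 20.1% were lower in KO 2 than in KO 1. Against CRISPR Control, 11 of the 17 were lower in KO 1 (31.3% of all genes) and all 17 in KO 2 (34.4%). In CRISPR Control 9 of the 17 were lower and none was higher than WT (median -0.21), beside 26.3% of all genes that were lower. RRM2 there was 0.15 from WT, with its libraries above those of WT. Of 8 mitosis genes, 3 were lower than WT in KO 1 and all 8 in KO 2, with medians of -0.17 and -1.06. In CRISPR Control 2 of the 8 were higher and 2 lower than WT. The part of these S-phase and mitosis genes in the levels of TYMS, RRM1 and RRM2 was not tested.

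Per kb of annotated exon, the order of the WT levels was SLC29A1 (4445 normalised reads per kb), RRM1 (3247), RRM2 (1737), TYMS (1542), UPP1 (1268), DCK (533), TYMP (466), UMPS (274), DPYD (43.5) and CDA (39.2). SLC29A1 and RRM1 kept ranks 1 and 2 in all lines. The lengths take in every annotated exon of a gene, such as 9.15 kb for RRM2 and 4.23 kb for RRM1. The transcripts that gave the reads are not known, so the order between genes depends on these lengths. DPYD was above CDA in WT and CRISPR Control and below it in both knockout lines, at 0.687 in KO 1 and 8.26 in KO 2. The ratio of DPYD to UMPS reads within a library was 0.151 ± 0.0194 in WT and 0.131 ± 0.00706 in CRISPR Control, against 0.00273 ± 0.00198 in KO 1 and 0.0381 ± 0.00788 in KO 2. It carries the difference for which DPYD was listed and is a description of RNA. Breakdown and activation of fluorouracil were not measured.

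The rest of the pathway was read from 55 related genes in 4 groups, of which 46 were tested. In KO 1, 8 were higher and 19 lower than WT, with a median log2 difference of -0.14. In KO 2, 10 were higher and 24 lower (median -0.26), and in CRISPR Control 12 were higher and 19 lower (median -0.12). These counts, and those of the groups below, stand beside shares of 35.5%, 55.0% and 53.4% of all tested genes that passed in KO 1, KO 2 and CRISPR Control. Of 10 tested genes of uridine and de novo pyrimidine synthesis, none was higher and 5 were lower in KO 1, and 2 were higher and 5 lower in KO 2. Of the same 10 genes, none was higher and 5 were lower in CRISPR Control. The medians were -0.16 in KO 1, -0.30 in KO 2 and -0.18 in CRISPR Control for these 10 genes. PRPS2, one of the enzymes that make the ribose phosphate donor, had the largest change among them in KO 2, with 1649.6 ± 43.2 in WT and 1202 ± 114 in CRISPR Control, against 1400.1 ± 72.6 in KO 1 and 888 ± 17.0 in KO 2. It was thus also lower than WT in CRISPR Control (-0.46 ± 0.08, SE, log2, limma adjusted p = 8.59e-05), and KO 1 was higher than CRISPR Control (0.22 ± 0.08, limma adjusted p = 0.0206). The other steps of uracil breakdown, DPYS and UPB1, were at or near 0 in all lines.

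Of 15 genes of thymidylate, folate and uracil in DNA, none was higher and 9 were lower in KO 1, and 1 was higher and 12 were lower in KO 2, with medians of -0.30 and -0.80. In CRISPR Control 4 of the 15 were higher and 5 lower than WT (median -0.13). TK1, the thymidine kinase of dividing cells, had 8381, 7160.4 and 7127 in WT and 7972, 9489 and 11080.2 in CRISPR Control, against 5042, 4954 and 4985 in KO 1 and 3040.1, 3318 and 3906 in KO 2. UNG, the glycosylase that removes uracil from DNA, had 4168 ± 147 in WT and 3747 ± 269.9 in CRISPR Control, against 3140.4 ± 122 in KO 1 and 1912 ± 24.7 in KO 2. TK1 and UNG were each lower in KO 2 than in KO 1, by log2 differences of -0.55 and -0.72 (limma adjusted p of 0.000400 and 1.74e-07).

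Of 13 genes of deoxycytidine nucleotides, 5 were higher and 2 lower in KO 1, and 4 were higher and 4 lower in KO 2. In CRISPR Control 4 of the 13 were higher and 5 lower than WT. CMPK2, a mitochondrial nucleotide kinase that interferon induces, had the widest range of all related genes: 11.3, 6.36 and 6.67 in WT and 14.7, 16.6 and 15.4 in CRISPR Control, against 48.6, 37.1 and 30.9 in KO 1 and 1190.4, 1156 and 1219 in KO 2. It rose by 2.15 ± 0.23 (SE, log2) in KO 1 (limma adjusted p = 5.46e-07) and by 7.07 ± 0.23 in KO 2 (limma adjusted p = 1.71e-14). SAMHD1, which hydrolyses deoxynucleotide triphosphates, had 1941 ± 63.7 in WT and 1409 ± 23.8 in CRISPR Control, against 2269 ± 140 in KO 1 and 4712 ± 60.1 in KO 2, and rose by 1.28 ± 0.07 in KO 2 (limma adjusted p = 1.39e-11). Of 12 tested interferon-stimulated genes, 10 were higher and none lower in KO 1, with a median of 1.40. All 12 were higher in KO 2, with a median of 4.10. RSAD2 is counted as higher in both knockout lines, but it passed the minimum mean count only through KO 2. Its mean there was 739.7, beside 2.82 for WT and 10.6 for KO 1. The rise of RSAD2 in KO 2 is therefore a description and no support, and its call in KO 1 rests on low counts. Over all tested genes, 18.0% were higher in KO 1 and 27.1% in KO 2. In CRISPR Control 4 of the 12 were higher and 6 lower than WT (median -0.33). The summed normalised read count of the 13 listed genes was 10416 to 10795 in WT and 10847 to 12059 in CRISPR Control, against 16358 to 20415 in KO 1 and 95106 to 100896 in KO 2, and IFI44L was at 0 outside KO 2. The part of these genes in the levels of CMPK2, SAMHD1 and TYMP was not tested. NT5E, the surface nucleotidase CD73, which was singled out after its values were seen, had 11279 ± 428 in WT and 3558 ± 245 in CRISPR Control, against 21244 ± 841 in KO 1 and 22578 ± 1676 in KO 2.

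Of 8 tested nucleoside carriers and export pumps, 3 were higher and 3 lower in each knockout line, and 4 were higher and 4 lower in CRISPR Control. SLC29A4, a carrier of the same family as SLC29A1, had 2151 ± 157 in WT and 2614 ± 400.0 in CRISPR Control, against 1703 ± 131 in KO 1 and 998 ± 86.1 in KO 2. ABCC3, an export pump, had 3398 ± 135 in WT and 1252 ± 141 in CRISPR Control, against 5102 ± 255 in KO 1 and 7074 ± 242 in KO 2. ABCG2, a multidrug pump that was also singled out after its values were seen, went in different directions in the knockout lines, with 140.0 ± 29.0 in WT and 780.3 ± 32.6 in CRISPR Control, against 18.9 ± 4.29 in KO 1 and 368 ± 11.1 in KO 2. The difference between the knockout lines was 4.24 ± 0.16 (SE, log2, limma adjusted p = 4.40e-13).

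**Figure D4:**
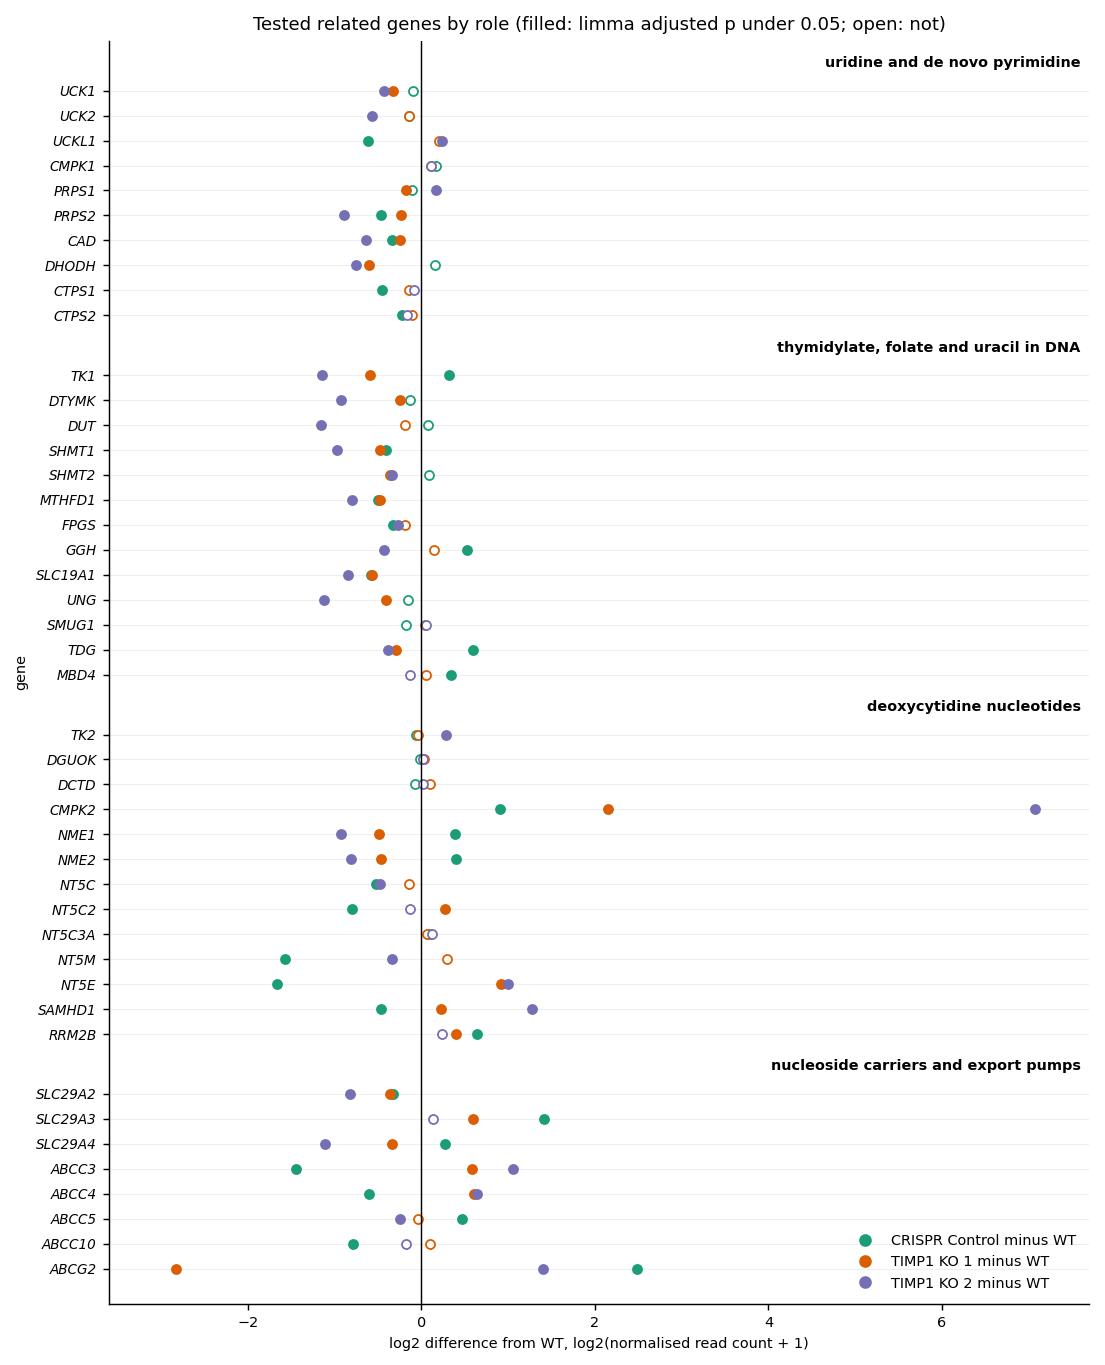
Log2 difference from WT (horizontal axis, of the normalised read count plus 1) of tested related genes in CRISPR Control, TIMP1 KO 1 and TIMP1 KO 2, grouped by role; filled points passed a limma adjusted p of 0.05 and open points did not. Most genes of thymidylate, folate and uracil in DNA lie left of 0 in the knockout lines and further left in KO 2, and CMPK2 reaches 7.07 in KO 2.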

How the data were processed

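RNA of 12 libraries, 3 of each of 4 MIA PaCa-2 lines, was grouped by the sample titles. The authors trimmed the reads with Cutadapt, aligned them to GRCh38 with STAR, used featureCounts to count them per gene and scaled each library by its DESeq2 size factor. What was deposited is this signal, a normalised read count per gene, with replicates not pooled. The annotation release and strand setting are not given in the sources used here, so reads where genes overlap could have gone to the wrong one. Such scaling removes a change shared by most genes. Columns of line means (4) and 1 blank row were not used.

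All values were whole multiples of a step per library (100% within 0.01 reads), which returned the reads and the depths, 26908701 to 36093563 in genes. Counting intervals and the limit of 3 reads for a count of 0 cover counting error only. Genes with a mean of at least 10 (15987) were tested with limma 3.58.1 in R 4.3.3 on log2(normalised read count + 1), with 4 line means from all libraries, a trended eBayes and two-sided Benjamini-Hochberg adjusted p under 0.05. On data simulated for KO 1 against WT over 15987 genes, limma recovered 93% of genes changed by 1 and 100% of those changed by 2 (log2). Of the genes it called there, 4.455% had not been changed. The simulation changed 200 genes and gave every gene the same relative spread. Far more genes passed in the real comparisons, so these shares are not the power of the tests reported here. Alternatives were another pseudocount, other filters and scalings, fits of only the lines compared, a replicate block, edgeR 4.0.16 and DESeq2 1.42.0 on the recovered reads, and leaving out each library.

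The 10 genes and the lists of related genes were chosen with earlier results of these data known. Named were the 10 genes, TIMP1, related genes past the threshold against WT in both knockout lines in 1 direction with a log2 difference of at least 1 in either (otherwise the 1 with the largest change), tested genes within 2 Mb of DPYD, and the 5 genes with the highest r with DPYD, besides those said to be singled out. Some genes are counted but not reported here. Gene spans and exon lengths are from GENCODE v44 on GRCh38 and promoter windows from RefSeq on GRCh38.p14. Of the gene identifiers, 97.6% matched GENCODE with their version.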

Additional observations from a re-analysis of the deposited data

Results flagged for a closer look

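The change against WT differed between TIMP1 KO 1 and TIMP1 KO 2 for 5 of the 9 tested genes, by the limma test of the difference between the knockout lines. All 5 were lower in KO 2, beside 38.2% of all tested genes that passed this test, 18.1% higher and 20.1% lower. TYMS had fallen further in KO 2, by a log2 difference of -0.97 ± 0.09 (SE, limma adjusted p = 7.02e-08). The difference was -0.49 ± 0.06 for RRM2 (limma adjusted p = 7.24e-06), -0.47 ± 0.06 for RRM1 (limma adjusted p = 1.29e-05) and -0.31 ± 0.08 for SLC29A1 (limma adjusted p = 0.00353). In each of these genes all 3 KO 2 libraries lay below all 3 KO 1 libraries. For UMPS it was -0.21 ± 0.07 (limma adjusted p = 0.0307). The UMPS difference missed the threshold with equal library totals (-0.11, limma adjusted p = 0.243), quantile normalization (-0.17, limma adjusted p = 0.0792) and no filter on low genes (limma adjusted p = 0.0573). It also missed the threshold without KO 1 replicate 1 or 2 or KO 2 replicate 1 or 2 (limma adjusted p of 0.0639 to 0.0986). The summed S-phase genes were also lower in KO 2, at 42258 to 44545 normalised reads against 64761 to 66727 in KO 1, and their part in these differences was not tested. With 1 clone for each knockout line, a difference between the guides and a difference between clones cannot be told apart.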

How the results depend on the processing

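The replicate numbers did not pair the libraries. Same-numbered libraries of different lines deviated from their line means with correlations of -0.129 to 0.16, 2 of 18 above 0.1, and 4 of 12 libraries correlated best with their own number. With the replicate number as a block, 7 of the 9 genes passed in KO 1 against WT in place of 8, as UMPS missed the threshold (-0.20, limma adjusted p = 0.0536), and no other call on the 9 genes changed.

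Numbers of the 9 genes past the threshold stayed within 1.5 times of those reported under all alternatives except 1. In KO 1 against WT the number was 5 without KO 1 replicate 3 and ran from 5 to 8 over the libraries left out. It was 6 with no filter, which brings more genes into the adjustment. DCK in KO 1 against WT turned to 0.11 without WT replicate 2 and to 0.03 without KO 1 replicate 2. In KO 2 against CRISPR Control, equal library totals put the all-gene median at 0.11. The 9 genes kept their directions there. Among 648 values with a library left out, 606 kept direction and side of the threshold, 29 missed it, 11 newly passed and 2 turned. Among 480 under other alternatives the numbers were 455, 14, 11 and 0. CDA and, in KO 1, DPYD rest on few reads.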

Other observations

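Of the 55 related genes, 9 were too low to be tested. The uracil breakdown gene DPYS and the carrier gene SLC22A7 had 0 reads in all 12 libraries, which allows up to 3 reads in each. UPB1, the last enzyme of that breakdown, reached 6 reads in its highest library, and UPP2, the second uridine phosphorylase, reached 3. The concentrative nucleoside carriers SLC28A1, SLC28A2 and SLC28A3 reached 4, 8 and 3 reads. ABCC11 reached 26 reads and had normalised read counts of 5.64 ± 1.99 in WT and 11 ± 3.48 in CRISPR Control, against 10.4 ± 2.93 in KO 1 and 12.1 ± 8.27 in KO 2. ABCB1, the multidrug pump P-glycoprotein, had 0.318 ± 0.550 in WT and 0.720 ± 1.25 in KO 1 but 17 ± 1.84 in CRISPR Control and 14.9 ± 5.27 in KO 2, so its highest levels were in 1 edited line with TIMP1 intact and 1 knockout line.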
